A study of Populus trichocarpa with 28 samples.

Results

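Young leaves of Populus trichocarpa (black cottonwood, a fast-growing tree used as a model for woody plants) were compared after 25 days of drought with young leaves of watered plants. These 4 poly(A)-selected libraries were chosen by their labels (long-term treatment, young leaves, mRNA) from the 28 libraries of the series: 2 drought libraries, numbered 64 and 68 in their titles, and 2 control libraries, numbered 63 and 70. All plants were rooted stem cuttings kept in a greenhouse at 20 to 35 C and watered to field capacity for 2 months. The controls then stayed at field capacity, while the drought plants were held at 40% of it. The labels name no cultivar and do not say which leaves counted as young. Nothing in them states that 2 libraries with the same treatment stand for 2 plants, so p-values measure the spread between libraries, which may be technical.

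Leaves of poplar are formed at the shoot apex, where a meristem of dividing cells makes new primordia. Young leaves grow by cell division and then by cell expansion, and as they mature they build up the photosynthetic apparatus, the cuticle and export of sugar. Water deficit slows leaf expansion and changes hormone signalling, cell wall, osmolyte and photosynthesis genes. A stranded library keeps apart reads from the coding strand of a gene (sense) and reads from the opposite strand (antisense), and reads in introns come mostly from transcripts that are not yet spliced.

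The deposited counts gave 25507118 and 27048613 sense gene reads in controls 63 and 70, and 21196818 and 26279328 in drought libraries 64 and 68. Antisense gene reads numbered 758661 to 884446 per library, intron sense reads 324693 to 373629, and intron antisense reads 238573 to 323644. Levels are given as CPM, the count scaled to the TMM-corrected sense library size. The 100 genes with most reads took 23.0% of sense reads in control 63, and 30.5% to 34.6% in the other libraries. The root mean square log2 difference over genes was 0.43 between the controls, 0.37 between the drought libraries and 0.63 to 0.67 between a control and a drought library. Gene IDs could not be paired with gene names, so genes are given by ID and no role is assigned to them.

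The tissue label was checked against genes that separate apex from mature leaf in other libraries of the series. Genes at least 4-fold higher in apex than in mature leaves of the short-term control libraries (total RNA, titles 19 and 49) formed an apex list of 2882 genes, and those at least 4-fold higher in mature leaves a mature leaf list of 2298 genes. Both used edgeR at an adjusted p under 0.05 and no young leaf library. In the long-term control libraries, the median log2(CPM + 0.5) level of the apex list genes tested in young leaves was 3.43 and 3.56 in apex, 1.94 and 1.92 in young leaves, and 0.39 and 0.31 in mature leaves. For the mature leaf list the medians ran the other way, at 0.89 and 0.86 in apex, 2.75 and 2.62 in young leaves, and 3.79 and 3.59 in mature leaves. Control young leaves thus lay between apex and mature leaves in both lists, with no overlap between tissues.

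Drought changed the sense level of 2834 of 24778 genes tested in young leaves (11.4%; edgeR's quasi-likelihood test, Benjamini-Hochberg adjusted p under 0.05). The level rose in 1144 genes (4.62%) and fell in 1690 (6.82%). Risers had a median log2 change of 1.24 and fallers of -1.18, against -0.004 over all genes tested. At least 8-fold changes were commoner among the risers, with 123 genes against 36 fallers. Together the risers took 19874 and 21555 CPM in controls 63 and 70, and 47955 and 47350 CPM in drought libraries 64 and 68. The summed level of the fallers was 94429 and 92099 CPM in the controls, and 36782 and 34870 CPM in the drought libraries. The libraries of each arm lay close together in both sums, as they had to for genes called on the same values. Without drought library 64 the count was 1841, and against a threshold of a 1.5-fold change it was 785. Drought and control libraries did not overlap in 57.7% of all genes tested. With 2 libraries per arm, such separation is also common in genes that do not change, so it does not count as a response.

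Risers had a median of 6.06 CPM in controls and 14.1 CPM in drought, and fallers 15.9 CPM and 7.30 CPM, against 8.22 CPM over all genes tested. Splitting genes by direction places risers low and fallers high in the controls. The share of genes that fell was 2.91% among genes with a mean under 1 CPM and 8.43% among genes at 100 CPM or more, while the share that rose stayed between 3.55% and 5.42% over all levels. Of the genes with no intron entry in the files, 6.88% rose and 8.41% fell, against 4.31% and 6.61% of those with one. Called genes often had neighbouring IDs: 15.6% of risers stood next to another riser, against 5.81% of all genes tested, and 14.2% of fallers next to another faller, against 8.75%. Runs of at least 3 adjacent IDs called in the same direction numbered 13 for risers and 8 for fallers, and the longest run held 4 IDs. Near-identical copies can share reads in such runs, so their members are uncertain.

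Potri.014G126000 had the largest rise of the genes that met the naming rule. Its sense level was 0.282 and 0.564 CPM in controls 63 and 70, and 30.5 and 19.1 CPM in drought libraries 64 and 68. The log2 change was 5.88 with a standard error of 0.38 (adjusted p = 0.00119). Its level in drought young leaves approached that of mature leaves, where the long-term controls had 46.1 to 57.9 CPM, while the long-term apex controls had 0.189 to 0.205 CPM.

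Potri.013G101000 followed, at 6.25 and 4.03 CPM in the controls against 254 and 165 CPM in the drought libraries (log2 change 5.34, standard error 0.33, adjusted p = 0.00116). This gene was also higher after 24 hours of drought in the short-term libraries (adjusted p = 0.000216 in apex and 0.0381 in mature leaves). In short-term apex it was at 2.83 to 6.71 CPM in controls and 692 to 1156 CPM in drought, and in short-term mature leaves at 5.67 to 22.3 CPM and 317 to 900 CPM. In the long-term apex, controls held 4.26 to 4.91 CPM and drought libraries 3.03 to 3.51 CPM (adjusted p = 0.470). In long-term mature leaves it was at 252 to 287 CPM in controls and 365 to 720 CPM in drought (adjusted p = 0.147). In roots it was high in both arms, at 2061 to 2316 CPM in mRNA controls and 3320 to 3847 CPM in drought (adjusted p = 0.0403).

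Potri.006G108100 fell most. It had 323 and 261 reads in controls 63 and 70, or 11.4 and 10.5 CPM, and 0 and 4 reads in drought libraries 64 and 68. The log2 change was -6.94 with a standard error of 0.50 (adjusted p = 0.00119), a size that rests on those few drought reads and was -11.1 without drought library 68. In the long-term apex controls the same gene stood at 896 to 1064 CPM, and in mature leaf controls at 0.0435 to 0.143 CPM. Potri.013G051100 had 59.4 and 22.9 CPM in the controls, and 0.724 and 1.60 CPM in the drought libraries (log2 change -5.11, standard error 0.78, adjusted p = 0.0458). The controls of this gene differed by more than its 2 drought libraries, and the call was lost without drought library 64 (adjusted p = 0.380) or 68 (0.251). Like Potri.006G108100, it was high in apex controls (408 to 463 CPM) and close to 0 in mature leaves.

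The largest shifts in read share involved other genes, chosen here after their values were seen. Potri.019G031200 took 7016 and 5429 CPM in controls 63 and 70 and 882 and 687 CPM in drought libraries 64 and 68 (log2 change -2.99, standard error 0.38, adjusted p = 0.00413). The gene also fell in short-term apex (log2 change -5.65, adjusted p = 0.000928) and in root mRNA (-3.46, adjusted p = 0.0138). In long-term mature leaves its controls differed widely, at 566 and 4687 CPM, and the change of -5.87 did not pass the test (adjusted p = 0.0593). Potri.008G189400 gained most, from 167 and 162 CPM to 2138 and 1603 CPM (log2 change 3.51, standard error 0.31, adjusted p = 0.00172). In long-term mature leaves Potri.008G189400 was at 2588 to 3429 CPM in controls and 2754 to 3378 CPM in drought, a level that drought young leaves came near.

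**Figure D1:**
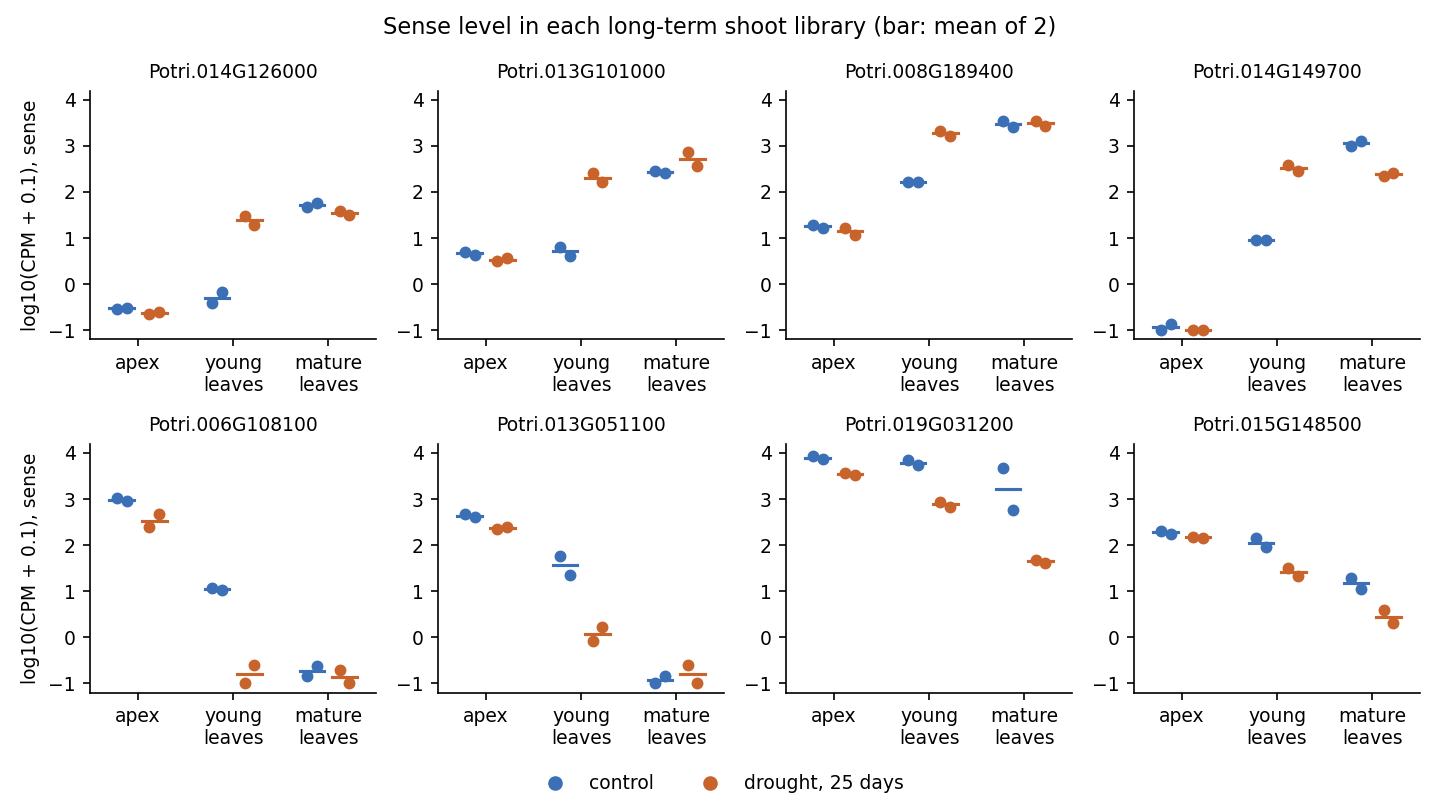
Sense level of 8 genes in the long-term apex, young leaf and mature leaf libraries, as log10(CPM + 0.1), with control in blue, drought in orange and a bar at the mean of the 2 libraries. In young leaves the 4 genes of the upper row are higher in drought and the 4 of the lower row lower, with no overlap between arms.

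Genes of the mature leaf list rose and genes of the apex list fell in drought young leaves. The mature leaf list had 2075 tested members, and 528 of them rose (25.4%) and 48 fell (2.31%); their median log2 change was 0.49. The apex list had 1920 tested members, and 13 rose (0.677%) and 619 fell (32.2%); their median was -1.04. For comparison, 4.62% of all tested genes rose and 6.82% fell, around a median of -0.004. Over all 2882 apex list genes, on the scale of the 4 young leaf libraries, the level summed to 38622 and 39908 CPM in the control and 15971 and 18082 CPM in the drought libraries, which did not overlap. For the mature leaf list the sums were 202320 and 280650 CPM in controls 63 and 70, and 312120 and 296490 CPM in drought. Control 70 lay closer to the drought libraries than to control 63 in that sum. The count of apex list fallers was 361 without drought library 64 and 399 without control 70. In a bulk sample, fewer cells of a type and less RNA per cell cannot be told apart.

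The change in young leaves followed the size of the preference in the short-term control libraries. Genes at least 64-fold higher in mature leaves than in apex (162 genes) had a median log2 change of 1.81 in young leaves, and 61.1% of them rose. The medians were 0.93, 0.41 and 0.23 for genes 16 to 64-fold, 4 to 16-fold and 2 to 4-fold higher in mature leaves. The 15498 genes within 2-fold had a median of 0.003, with 1.69% risen and 3.86% fallen. On the apex side the medians were -0.34 for genes 2 to 4-fold higher in apex, -0.83 for 4 to 16-fold, -1.27 for 16 to 64-fold and -1.73 for the 203 genes at least 64-fold higher in apex, of which 36.5% fell. The bins rest on the same short-term control libraries as the lists and were given no test.

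**Figure D2:**
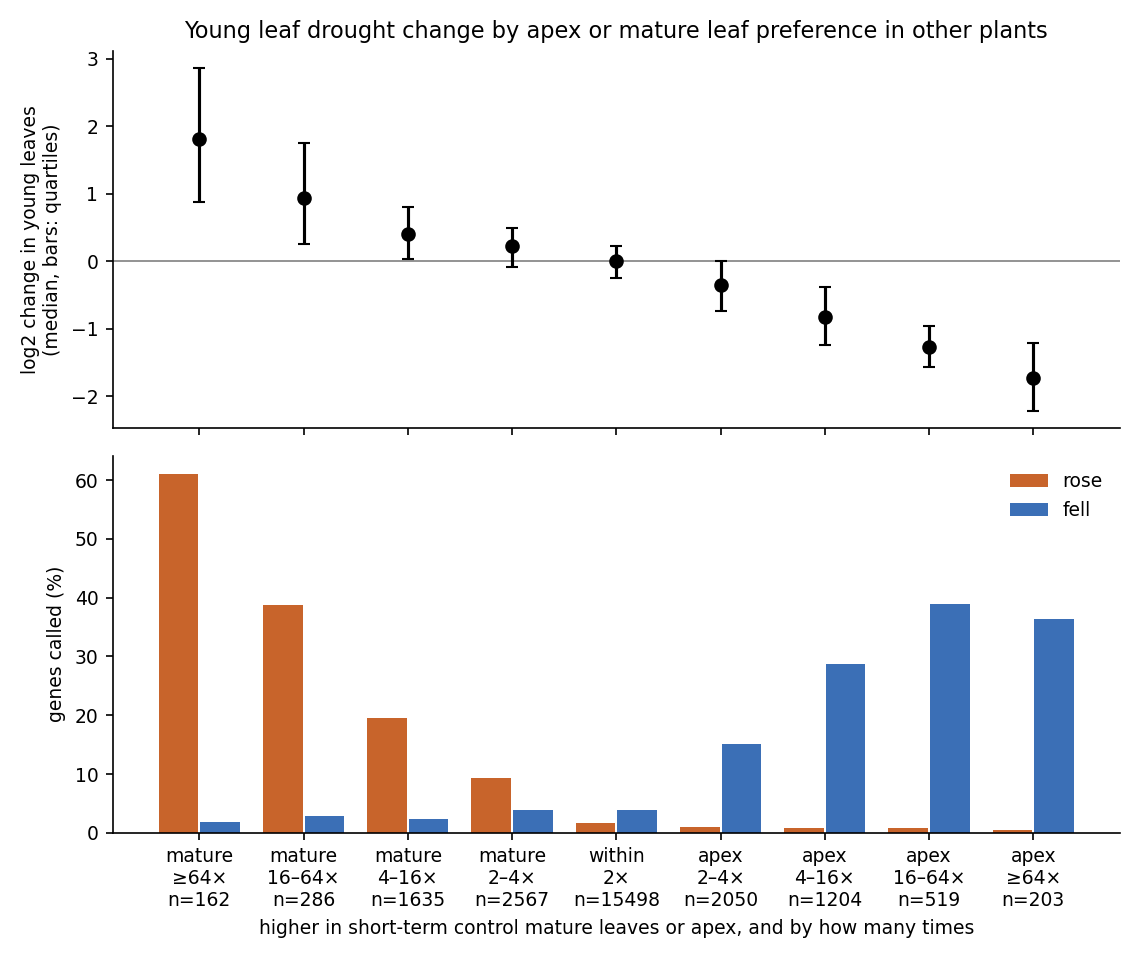
Above, the median log2 drought change in young leaves (bars: quartiles) of genes grouped by their ratio between apex and mature leaves in short-term control libraries. Below, the percent of each group that rose (orange) or fell (blue) in young leaves. The medians go down step by step from 1.81 to -1.73.

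List levels set drought young leaves between their own controls and the mature leaf controls. The median log2(CPM + 0.5) of the apex list was 0.95 and 1.26 in drought libraries 64 and 68, below both young leaf controls (1.94 and 1.92) and above both mature leaf controls (0.39 and 0.31). For the mature leaf list the drought young leaves had 3.26 and 3.10, above their controls (2.75 and 2.62) and below the mature leaf controls (3.79 and 3.59). The 619 fallen apex list genes had median levels of 24.3 CPM in apex controls, 8.25 CPM in young leaf controls and 1.25 CPM in mature leaf controls. The 528 risen mature leaf list genes had 1.04, 4.41 and 17.5 CPM in the same order. In drought young and drought mature leaves the 619 genes had 3.07 and 0.534 CPM, and the 528 genes 13.8 and 22.9 CPM. Both gene sets were chosen by list and by their young leaf calls. That choice favours the order of their control levels and fixes the direction of their shift in young leaves. The apex list median was 0.068 and 0.060 in drought mature leaves, so it was lower in drought in both leaf ages. The mature leaf list median was 3.46 and 3.37 there, below the mature leaf controls.

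**Figure D3:**
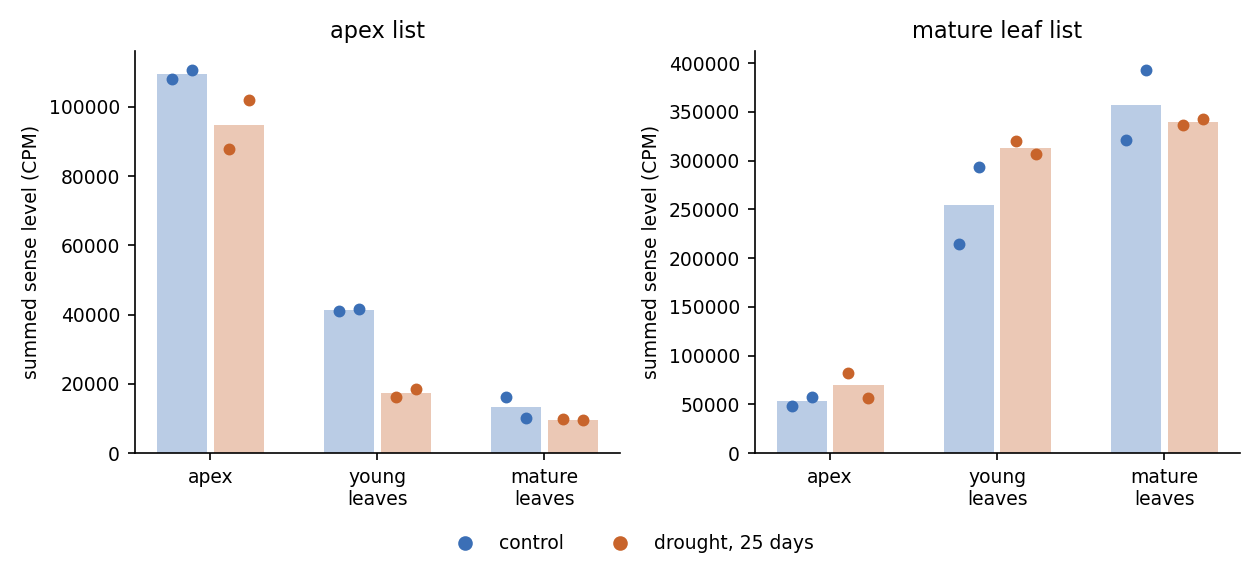
Summed sense level of the apex list (left) and the mature leaf list (right) in CPM, in each long-term apex, young leaf and mature leaf library (points; bars are the mean of 2), with control in blue and drought in orange. Young leaf controls sum to 41027 and 41693 CPM in the apex list and drought young leaves to 16370 and 18680 CPM, on a scale fitted to these 12 libraries.

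A root list of 2565 genes, at least 4-fold higher in long-term root total RNA controls than in both short-term shoot controls, also moved toward higher levels. Of its 1021 tested genes, 128 rose (12.5%) and 42 fell (4.11%), with a median log2 change of 0.11. The root controls carry the same title numbers as the young leaf controls. By class, 46.2% of all risers were on the mature leaf list (8.37% of all genes tested), 7.87% on the root list alone (3.42%) and 44.8% on no list (80.5%). Among fallers, 36.6% were on the apex list (7.75% of all genes tested) and 58.5% on no list.

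Genes that responded to 24 hours of drought in the short-term libraries were compared with young leaves after 25 days. In short-term mature leaves 8.73% of tested genes had risen and 9.2% fallen, and in short-term apex 30% and 32.3%. Of 2051 tested genes that had risen in short-term mature leaves, 299 rose (14.6%) and 59 fell (2.88%), with a median log2 change of 0.26. Of 2182 tested genes that had fallen there, 478 fell (21.9%) and 114 rose (5.22%), with a median of -0.37. For genes on neither shoot list the counts ran the same way: 225 of 1795 short-term risers rose and 39 fell, and 388 of 1505 short-term fallers fell and 18 rose. From the short-term apex comparison, 638 of 7214 risers rose in young leaves (8.84%) and 165 fell (2.29%), while 1196 of 7864 fallers fell (15.2%) and 108 rose (1.37%). Over all genes tested in young leaves 4.62% rose and 6.82% fell.

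The response of young leaves was compared with that of mature leaves from the same long-term experiment by an interaction test over 8 libraries. The response differed in 436 of 25434 genes (1.71%), being higher in young leaves for 405 (1.59%) and lower for 31 (0.122%). Where a library was left out of an interaction test, the library of that title number was left out in both tissues. Libraries with the same title number deviated together between tissues, and with the number as a block the count was 1916 (1583 higher and 333 lower). Without drought library 64 or 68 it was 31 or 61, and without control 63 it was 218. Of the 405 genes, 233 were on the mature leaf list and 14 on the apex list. Those lists held 8.37% and 7.75% of all genes tested in young leaves. Of all young leaf risers, 46.2% were on the mature leaf list. By the young leaf test 192 of the 405 rose and 62 fell, and by the mature leaf test 10 rose and 220 fell. The median log2 change of the 405 was 0.90 in young leaves and -1.75 in mature leaves. Of the 31 genes, 21 were on the apex list and 0 on the mature leaf list, with medians of -0.64 in young and 1.22 in mature leaves. Both sets were chosen on the difference between the responses, so the gaps between these medians were given by the choice.

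Of the 1144 young leaf risers, 192 had a higher response than mature leaves and 0 a lower one by this test (518 and 5 with the block). Of 1685 fallers tested, 62 had a higher response, a smaller fall than in mature leaves, and 12 a lower one (163 and 77 with the block). The calls in young leaves and this test share libraries. In mature leaves, where 1.29% of tested genes rose and 4.07% fell, 96 of 1135 tested risers also rose and 20 fell, with a median log2 change of 0.37. Of 1441 young leaf fallers tested in mature leaves, 422 also fell and 1 rose, with a median of -1.06. Since the genes were called on their young leaf values, these medians are not set against those of young leaves.

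Potri.014G149700 changed in opposite directions. It stood at 8.89 and 8.78 CPM in young leaf controls 63 and 70 and at 392 and 287 CPM in drought libraries 64 and 68. In mature leaves it was at 994 and 1283 CPM in the controls and 221 and 261 CPM in drought. The difference between the responses was 7.56 on the log2 scale with a standard error of 0.37 (adjusted p = 0.000208, or 2.37e-06 with the block). After drought its levels in both leaf ages lay between 221 and 392 CPM, while the controls were far apart.

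Potri.012G022400 showed the reverse. Young leaves had 492 and 191 CPM in the controls and 65.5 and 130 CPM in drought, and the fall did not pass the test within young leaves (adjusted p = 0.141). Mature leaves had 5.05 and 5.35 CPM in the controls and 197 and 158 CPM in drought. The difference was -6.85 (standard error 0.74, adjusted p = 0.00918), and with the block its adjusted p was 0.0518. Without control 63 or drought library 64 its adjusted p was 0.0660 or 0.0742. For Potri.016G136000 the values were 15.4 and 17.9 CPM against 7.39 and 9.29 CPM in young leaves, and 3.002 and 4.68 CPM against 12.2 and 19.4 CPM in mature leaves (difference -2.99, standard error 0.40, adjusted p = 0.00990, with the block 7.42e-05). This call was lost without control 63 (0.0562), drought library 64 (0.0597) or drought library 68 (0.0603).

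Potri.006G062100 fell in both tissues. It had 14.9 and 19.6 CPM in young leaf controls and 4.49 and 6.78 CPM in drought (log2 change -1.60, adjusted p = 0.00747), a 3.06-fold drop in the mean. In mature leaves the controls had 5.05 and 3.59 CPM and both drought libraries had 0 reads, at least 70.2-fold lower if the group is set to a floor of 3 counts in all. The fitted difference of 8.17 (standard error 0.97, adjusted p = 0.00969, with the block 0.00195) depends on how those 0 counts are modelled and is no measure of size. Without control 63 or drought library 68 the adjusted p was 0.0526 or 0.0647.

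**Figure D4:**
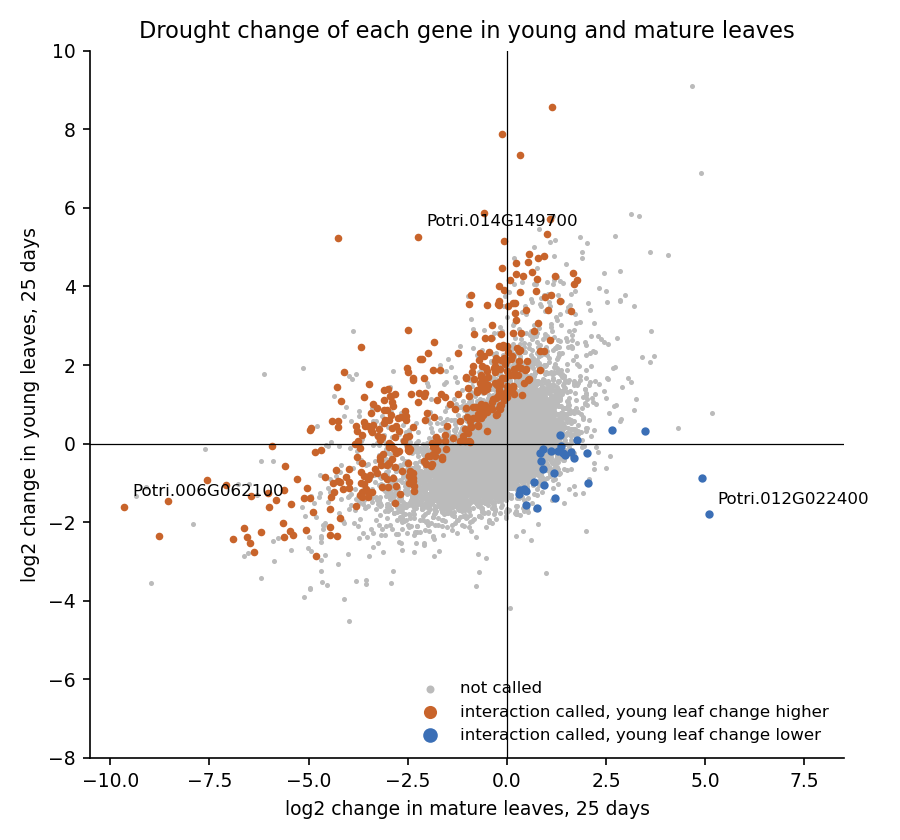
Log2 drought change in mature leaves (horizontal) and young leaves (vertical) of the 23101 genes tested in both, each fitted within its tissue. Of these, 427 had a response that differed between tissues, 398 higher in young leaves (orange) and 29 lower (blue). The farthest points to the left include genes with 0 reads in drought mature leaves.

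Few genes were called in the apex after 25 days. Of 25068 genes tested in the long-term apex, 7 rose (0.0279%) and 34 fell (0.136%). With 2 libraries per arm this does not show that the other genes were unchanged. An interaction test of young leaf against apex called 1215 of 26341 genes (4.61%), 405 with a higher (1.54%) and 810 with a lower (3.08%) response in young leaves. With the title number as a block the count was 2399 (770 and 1629). It was 5 without control 63, 104 without drought library 64, 265 without control 70 and 482 without drought library 68. Of the 1690 young leaf fallers, 723 responded lower than the apex and 0 higher (1093 and 1 with the block), and of the 1144 risers 329 responded higher and 0 lower (467 and 0 with the block). These genes were called on the same young leaf libraries, so the choice favours these directions. The 810 genes included 362 of the apex list and 13 of the mature leaf list. Those lists held 7.75% and 8.37% of all genes tested in young leaves. Of the 810, 723 were young leaf fallers, and 36.6% of all young leaf fallers were on the apex list. The apex list share of the 810 is thus not separate from the young leaf calls.

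Potri.014G126000, Potri.003G138700, Potri.006G108100 and Potri.013G051100 met the naming rule in this comparison. Potri.014G126000 had 0.126 and 0.148 CPM in drought apex, and its responses differed by 6.39 (standard error 0.83, adjusted p = 0.00784, with the block 0.00290). Potri.003G138700 was at 8.89 and 16.4 CPM in young leaf controls and 208 and 164 CPM in drought, against 0.604 and 0.443 CPM and 0.0841 and 0.148 CPM in apex (difference 6.02, standard error 0.72, adjusted p = 0.00784, with the block 0.00221). Its mature leaf controls had 138 to 265 CPM.

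The young leaf falls were larger than those of the apex for the other 2 genes. Potri.006G108100 was at 1064 and 896 CPM in apex controls and 245 and 474 CPM in drought apex (adjusted p = 0.171 within the apex). Its responses differed by -5.50 (standard error 0.77, adjusted p = 0.0103, with the block 0.00159), a size that rests on 0 and 4 young leaf drought reads and was -9.31 without the libraries numbered 68. Potri.013G051100 had 463 and 408 CPM against 228 and 243 CPM in apex, and a difference of -4.23 (standard error 0.67, adjusted p = 0.0181, with the block 0.00903). Without the libraries numbered 63 all 4 calls were lost, with an adjusted p of 0.0843 for Potri.014G126000, 0.0672 for Potri.003G138700, 0.110 for Potri.006G108100 and 0.0764 for Potri.013G051100. Without number 70 the calls of Potri.014G126000 (0.0658) and Potri.006G108100 (0.0779) were lost, without 64 those of Potri.003G138700 (0.0605) and Potri.013G051100 (0.131), and without 68 that of Potri.013G051100 (0.0627).

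Antisense reads were 3.07 and 2.88 per 100 sense reads in controls 63 and 70, and 3.58 and 3.37 in drought libraries 64 and 68. A few genes held most of them: the 12 genes with most antisense reads took 69.96% to 72.6% of each library. Antisense counts were tested on the sense library sizes, and 121 of 1511 genes changed (8.01%), with 84 higher (5.56%) and 37 lower (2.45%). On this scale the median gene stood 0.16 higher in drought on the log2 scale. Scaled by the antisense totals themselves, the median was 0.004 and the split was 48 higher and 41 lower. DESeq2 called 54. The count was 79 without drought library 68.

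Where both strands were called, antisense and sense of a gene moved together more often than apart. Of the 84 genes with higher antisense, 80 were tested in sense, of which 36 rose, 1 fell and 43 were not called. Of the 37 with lower antisense, 35 were tested, and 13 fell, 1 rose and 21 were not called. Over all 1358 genes tested on both strands, 84 rose and 83 fell in sense. A neighbouring ID was a sense riser for 29.8% of the genes with higher antisense, against 7.68% of all 1511 genes tested. For genes with lower antisense, 43.2% stood next to a sense faller, against 9.46%. No antisense-to-sense ratio passed edgeR's test of both strands (0 of 1511 genes, with 183 at an unadjusted p under 0.05), and the count was 0 under every alternative run for it. With 2 libraries per arm this does not show that ratios were unchanged. No other tool was run for the ratio.

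Potri.005G204900 had the largest antisense rise under the naming rule, from 21 and 24 reads in controls 63 and 70 to 147 and 493 in drought libraries 64 and 68. This was 0.741 and 0.966 CPM against 7.10 and 18.8 CPM (log2 change 3.93, standard error 0.53, adjusted p = 0.0120). The call was lost without control 63 (0.393) or control 70 (0.237). Its sense level was 1.84 and 2.05 CPM in controls and 1.40 and 1.64 CPM in drought (adjusted p = 0.502), and its antisense-to-sense ratio had a log2 change of 4.25 (adjusted p = 0.275). In 4 other comparisons of shoot tissue its antisense level was also above the controls in both drought libraries, for example 28.3 to 33.1 CPM against 0.260 to 2.02 CPM in short-term apex, which was not tested here.

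Potri.013G095400 rose in antisense from 0.494 and 0.564 CPM to 5.94 and 6.55 CPM (log2 change 3.55, standard error 0.28, adjusted p = 0.000825), with sense at 0.459 to 0.965 CPM in all 4 libraries and a log2 change of the ratio of 3.01 (adjusted p = 0.262). Its antisense level was also above the controls in drought in long-term mature leaves, at 12.3 to 17.9 CPM against 4.92 to 7.83 CPM, and below them in short-term mature leaves, at 3.04 to 4.13 CPM against 13.4 to 14.6 CPM. Neither was tested here. Potri.003G028300 and Potri.015G148500 fell on both strands. Antisense of Potri.003G028300 went from 5.44 and 4.91 CPM to 1.26 and 0.723 CPM (log2 change -2.40, standard error 0.32, adjusted p = 0.00851), and its sense reads from 170 and 134 to 42 and 44 (adjusted p = 0.00649). Antisense of Potri.015G148500 went from 2.65 and 2.25 CPM to 0.531 and 0.495 CPM (log2 change -2.25, standard error 0.35, adjusted p = 0.0108), and its sense from 140 and 90.4 CPM to 32.4 and 21.5 CPM (adjusted p = 0.00702).

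The gene with the largest gain of antisense reads, chosen after its values were seen, was Potri.001G400200. It had 20387 and 26830 antisense reads in controls 63 and 70, 102229 in drought library 64 and 321818 in drought library 68, and 0 sense reads in all 4. These were 2.60% and 3.45% of all antisense reads in the controls, and 13.5% and 36.4% in drought. The log2 change was 3.26 with a standard error of 0.62 (adjusted p = 0.0204), and the call was lost without control 63 (0.164) or control 70 (0.0666). The gene with the neighbouring ID, Potri.001G400100, had 17.9 and 28.3 CPM in sense in controls and 140 and 395 CPM in drought (log2 change 3.54, standard error 0.63, adjusted p = 0.0422). That call was lost without control 63 (0.290) or control 70 (0.234).

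Antisense reads of Potri.001G400200 were 31.0 to 40.3 times the sense reads of Potri.001G400100 in the young leaf libraries. In the root libraries and in the short-term total RNA libraries, the same ratio was 0.951 to 0.987, and in the other long-term shoot mRNA libraries 28.8 to 75.1. The strand counts of the 2 IDs thus stood in another proportion in the long-term shoot mRNA libraries, and the part of the counting in this was not tested. The mature leaf libraries held 13290 to 19057 antisense CPM of Potri.001G400200 and apex libraries 47.3 to 126 CPM, so drought young leaves, at 4935 and 12249 CPM, moved from 720 and 1080 CPM toward the mature leaf level.

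A further group of genes had sense and antisense counts within 2% of each other in all 4 young leaf libraries. Of 6043 genes with at least 500 counts, 25 did so, and they held 50.0% and 37.8% of antisense reads in controls 63 and 70, and 43.1% and 17.4% in drought libraries 64 and 68. Potri.013G139800 had most reads of these, with 173085 sense and 173056 antisense reads in control 63. Such genes numbered 30 in long-term apex and 21 in long-term mature leaves, and 0 in the short-term and root sets. Their antisense values are not read here as antisense transcription, and the part of the counting in the equal numbers was not tested. Without them 122 antisense genes were called, in place of 121. All other genes except Potri.001G400200 gave 1.46 and 1.69 antisense reads per 100 sense reads in controls, and 1.55 and 1.56 in drought.

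**Figure D5:**
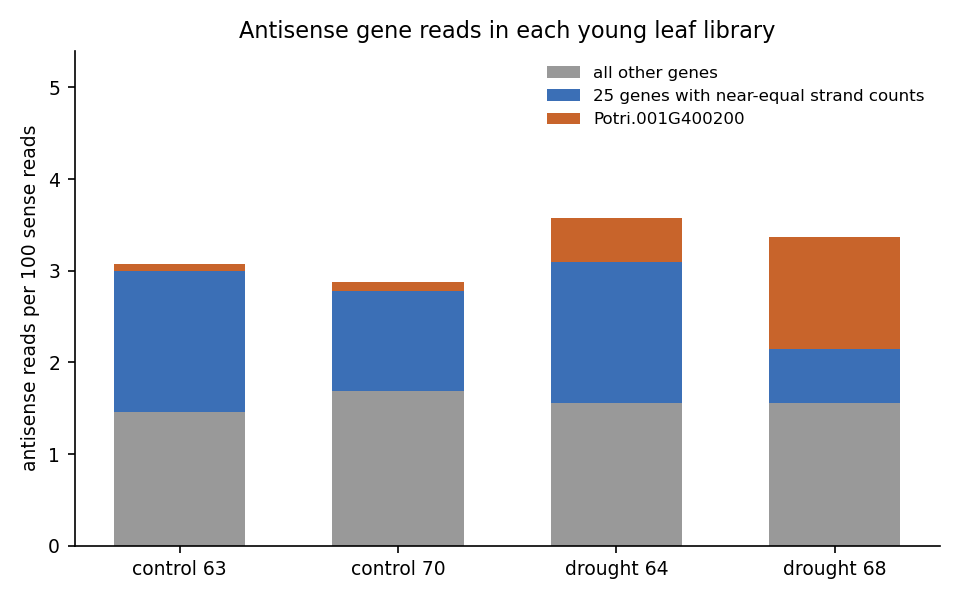
Antisense gene reads per 100 sense reads in each young leaf library, split into Potri.001G400200 (orange), the 25 genes with near-equal strand counts (blue) and all other genes (grey). The grey part lies between 1.46 and 1.69 in all 4 libraries, while the orange part is larger in both drought libraries.

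Intron reads followed the sense changes. They numbered 1.46 and 1.20 per 100 sense reads in controls 63 and 70, and 1.53 and 1.42 in drought libraries 64 and 68. On sense library sizes, 89 of 6767 intron entries tested changed (1.32%), of which 70 rose (1.03%) and 19 fell (0.281%), and the median over all of them was 0.27. Scaled by intron totals the split was 41 and 42. The count of 89 was 372 without control 63 and 476 without control 70. Of 290 sense risers with an intron test, 52 rose and 0 fell in introns, with a median log2 change of 1.16. For 333 sense fallers the counts were 0 and 18, with a median of -0.94. Among 6039 genes not called in sense, 17 rose and 1 fell, with a median of 0.28, close to that of all entries.

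Potri.013G101000, named above as a sense riser, had 0 intron reads in both controls and 44 and 62 in drought libraries 64 and 68, at least 39.7-fold higher if the controls are set to a floor of 3 counts in all (adjusted p = 0.00176). Intron reads of Potri.014G121900 went from 1 and 3 to 40 and 118 (log2 change 5.33, standard error 0.63, adjusted p = 0.00855), and its sense level from 2.40 and 3.18 CPM to 13.5 and 21.9 CPM (adjusted p = 0.00308). The same gene was higher in drought roots, at 38.3 to 68.1 CPM against 3.14 to 6.81 CPM in mRNA controls.

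Potri.017G047500 and Potri.019G031200 had the largest intron falls under the naming rule. Intron reads of Potri.017G047500 were 107 and 84 in controls and 16 and 11 in drought (log2 change -2.61, standard error 0.37, adjusted p = 0.0113), beside a sense level of 47.0 and 55.2 CPM against 14.3 and 8.91 CPM. For Potri.019G031200 they were 836 and 459 in controls and 108 and 93 in drought (log2 change -2.46, standard error 0.31, adjusted p = 0.00855), beside its sense change of -2.99. With a dispersion shared by all long-term shoot mRNA libraries, the intron calls of Potri.013G101000 (0.214), Potri.014G121900 (0.131) and Potri.019G031200 (0.180) were lost. Antisense reads in introns changed in 19 of 260 entries tested (7.31%), with 11 higher (4.23%) and 8 lower (3.08%). Without control 63 the count was 0 in edgeR, with 48 entries at an unadjusted p under 0.05, and DESeq2 on all libraries called 5.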

How the data were processed

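RNA was extracted with CTAB, treated with DNase I and made into libraries with a stranded TruSeq mRNA kit, per the labels' protocols. For each library the authors deposited raw read counts, as whole numbers per feature: sense and antisense counts of 41335 genes, and sense and antisense counts of 33325 intron entries, of which 109 join several genes. TopHat2 2.1.0, HTSeq 0.6.0 and DESeq2 are named in the submitters' processing notes. The genome build, annotation and counting options are not given in the sources used here, so genes that overlap or have near-identical copies are uncertain. The 5 closing lines of a file, which name no gene, were left out. In the sense files of young leaves, reads in no gene were 2.72% to 4.51% of all counted, and ambiguous reads 1.23%, 1.48%, 1.64% and 2.35% in control 63, control 70, drought 64 and drought 68.

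Counts of the 4 libraries were fitted with edgeR 4.0.16 (limma 3.58.1, R 4.3.3): default expression filter (10 counts scaled to library size, 15 in total), TMM, robust quasi-likelihood test, adjusted p under 0.05. Antisense and intron counts used the effective sense library sizes. Ratios were tested by a strand by arm term with a term for each library, and tissue differences by a tissue by drought term. A standard error is the log2 change over the square root of its F statistic. The fits were run on simulated counts with planted changes, the same dispersion for all features and no deviation shared between libraries. That run does not show how they perform on these data. DESeq2 1.42.0, other filters and scalings, and leaving out each library were the alternatives. Interaction tests left out both libraries of a title number together. The libraries of each tissue with the same title number deviated together: correlations of deviations from group means were 0.40 and 0.32 between young and mature leaves and 0.25 and 0.15 between young leaves and apex (26748 genes). The numbers were therefore taken to pair libraries across tissues. The main interaction fits had no term for the number, and the fits with it as a block are given beside them.

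None of the 41335 gene IDs matched the reference table, so lists by product name gave no result and no sequence is shown. Named genes are the 2 highest and 2 lowest by fold change among called genes whose arms do not overlap and whose mean level is 5 CPM or more in sense, or 1 CPM or more in antisense or introns. Members and lists were chosen with earlier results of these data known. Bounds from 0 counts cover counting error only.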

Additional observations from a re-analysis of the deposited data

Results flagged for a closer look

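Results are given here where the drought response of young leaves differed from that of another tissue by a test of the difference itself. Between young and mature leaves the test called 436 genes, and between young leaves and apex 1215. The log2 difference of the response from mature leaves was 8.17 for Potri.006G062100, a fitted value that depends on 0 counts in both drought mature leaf libraries and is no measure of size, 7.56 for Potri.014G149700, -6.85 for Potri.012G022400 and -2.99 for Potri.016G136000. From the apex it was 6.39 for Potri.014G126000, 6.02 for Potri.003G138700, -5.50 for Potri.006G108100, which rests on 0 and 4 drought reads in young leaves, and -4.23 for Potri.013G051100. Groups of 2 libraries were too small for a check of single outlying libraries.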

How the results depend on the processing

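No paired analysis was possible for drought against control within young leaves because the title numbers of the arms are not shared. With the title number as a replicate block, the interaction calls were 1916 against mature leaves and 2399 against apex, and of the 8 named differences only that of Potri.012G022400 (log2 -6.77) lost its call. Leaving out each replicate in turn gave 1841 to 2555 sense calls, 79 to 173 antisense, 80 to 476 intron sense and 0 to 12 intron antisense calls, 31 to 304 interaction calls against mature leaves and 5 to 482 against apex. It gave 361 to 859 apex list genes fallen, 413 to 510 mature leaf list and 93 to 129 root list genes risen, 223 to 316 short-term risers risen and 322 to 446 short-term fallers fallen. Tested against a 1.5-fold change, the counts were 785 sense calls, 191 apex list genes fallen, 233 mature leaf list and 52 root list genes risen, 97 short-term risers risen and 143 short-term fallers fallen. DESeq2 called 54 antisense genes and 5 intron antisense entries. With no count filter 305 intron sense entries were called. A dispersion shared with all long-term shoot mRNA gave 240 intron sense and 5 intron antisense calls. Root list genes risen numbered 243 with a 2-fold list and 69 with an 8-fold list, and mature leaf list genes risen 331 with an 8-fold list. For these counts the cause was not tested beyond the fewer libraries, list members or larger threshold that the setting itself brings. The other 70 alternative counts were within 1.5 times the main count. Of 24 single values, none changed direction in the alternatives run, 10 kept their call throughout and 14 lost it in at least 1. One of these, Potri.013G051100, lost its sense call with no count filter and without TMM as well. With 2 libraries per group, depth of 758661 to 884446 antisense and 324693 to 373629 intron sense reads limits those tests to the higher genes.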
